A study of Homo sapiens with 6 samples.

Results

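The matrix metalloproteinases (MMPs) and their tissue inhibitors (TIMPs) were followed in 12Z cells, an immortalised human endometriotic epithelial cell line that the labels describe as endometrial epithelial cells. The genes were chosen by symbol, namely MMP1, MMP2, MMP3, MMP9, MMP10, MMP14, MMP15, TIMP1, TIMP2 and TIMP3, and all 10 were found among the 16279 genes of the count and FPKM tables (FPKM, the count scaled by gene length and by the total of the library). RNA-seq was run on cells left without treatment (NC, n = 3) and on cells given recombinant human chemerin (rhChemerin, n = 3), an adipokine released mainly by fat cells, at 10 ng/mL for 48 h in 6-well plates. The comparison asks how transcript levels in these cells differ with chemerin. NC cells were untreated, and no vehicle control was described. All 6 libraries came from 1 cell line, and the labels call replicates 1 to 3 of each group biological replicates without saying how the cultures were kept apart, so that the p-values measure the spread between these libraries. Libraries are named NC-1 to NC-3 and rhChemerin-1 to rhChemerin-3.

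MMPs are zinc-dependent endopeptidases that cut collagens, gelatin, laminin, proteoglycans and other proteins of the extracellular matrix, and most are made as inactive zymogens that other proteases must open. Some are secreted, whereas the membrane-type enzymes stay at the cell surface, where MMP14 together with TIMP2 activates the zymogen of MMP2. TIMPs bind the active site of MMPs and block it, and in the endometrium the balance between enzymes and inhibitors is known for its part in menstrual breakdown, repair and implantation.

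The libraries held 35430881 to 38341643 counts in all. Here log2 CPM are counts scaled by the library total and its TMM normalization factor. Over the tested genes, which do not stand for replicates, Pearson's r of log2 CPM was 0.983 to 0.990 between NC libraries. Between the groups r was 0.948 to 0.986. Between rhChemerin libraries it was 0.960 to 0.985, so that its highest value was below the highest between groups. The value of 0.960 was that of rhChemerin-3 with rhChemerin-1. Values without rhChemerin-3 or rhChemerin-1 are therefore given beside many of the main results, and in the plot of fold changes for the 8 tested members. The keratins KRT8, KRT18 and KRT19 had mean FPKM of 820, 608 and 295 in NC and 917, 618 and 325 in rhChemerin. Of the other epithelial markers, EPCAM, CDH1 and CLDN4 had only 7 to 45, 15 to 65 and 23 to 80 counts, KRT7 had 115 to 205 and MUC1 1020 to 2070, and the stromal collagen gene COL1A1 had a mean FPKM of 1042 in NC and 965 in rhChemerin. The label of an epithelial cell was thus met by 3 keratins and less by the surface and junction genes. The summed FPKM of 8 epithelial markers was 1597 to 1867 in NC and 1761 to 1977 in rhChemerin, that of 6 stromal markers 1138 to 1334 and 860 to 1434, and that of 5 immune markers, led by CD68, 122 to 172 and 92.9 to 136. PTPRC, the pan-leukocyte marker, had 4 to 12 counts and PECAM1, an endothelial marker, 0 to 10. The marker lists held 8 epithelial, 6 stromal, 5 immune, 4 endothelial and 3 endometrial receptor genes. Of all these markers DESeq2 called 4, where it called 9.05% of all genes. CD14, VWF and MUC1 were lower, with log2 fold changes of -1.49, -1.97 and -0.57 (DESeq2 adjusted p = 4.32e-04, 0.00489 and 0.0404). PDGFRA was higher, at 0.79 (DESeq2 adjusted p = 0.0206), and edgeR called none of the 4. The part of these markers' cell types in the values of the members was not tested.

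In 12Z cells the transcripts of MMP14, MMP2, TIMP1 and TIMP2 were abundant, whereas MMP3 and MMP10 were at or near 0. MMP1 and MMP9 were higher and MMP15 was lower in rhChemerin than in NC, with log2 fold changes of 6.28, 2.00 and -0.80, and DESeq2 called these 3 of the 9 members it tested at an adjusted p under 0.05 (Benjamini-Hochberg over all genes). DESeq2 called 9.05% of all 14382 genes, 3.75% as higher and 5.3% as lower. The quasi-likelihood test of edgeR, the main test, called none of the 8 members past its filter on low counts and 0.0301% of 13311 genes, which is 4 genes, namely CLDN1, PGF, LYPD1 and CAVIN3, named after their values were seen. At an unadjusted p under 0.05 edgeR listed 6 of the 8 members and 3038 of all 13311 tested genes. Without rhChemerin-1 edgeR called 5 members, MMP1, MMP9, MMP14 and TIMP1 as higher and MMP15 as lower, where 6.24% of 13517 genes were called. Without rhChemerin-3 edgeR called 0 members, where 3.07% of all genes were called, and DESeq2 called 3, which were MMP9, MMP15 and TIMP2, where 12.1% were called. Since RNA came from whole cultures, fewer cells with a transcript and less of it per cell cannot be told apart. In the plot of fold changes, the interval of MMP1 is the widest.

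**Figure D1:**
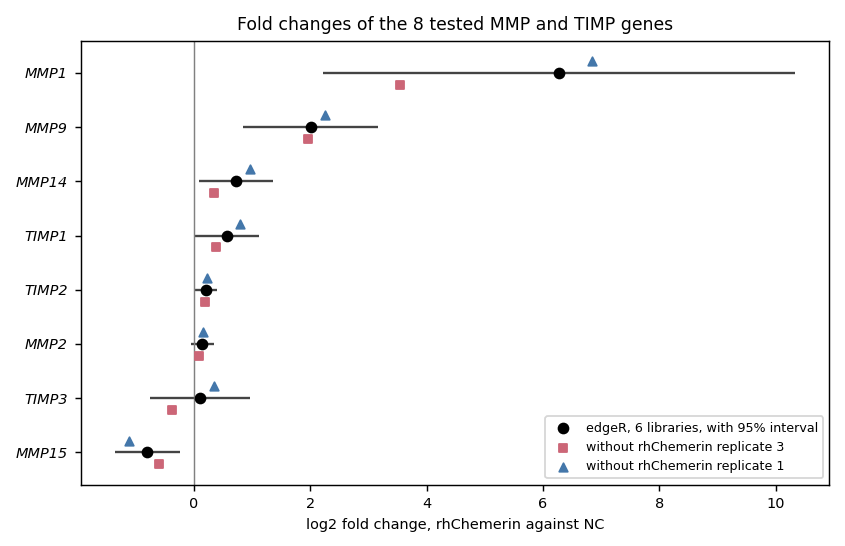
Log2 fold change of rhChemerin against NC on the x axis for the 8 members past the filter on low counts, from edgeR with all 6 libraries (black points, bars are 95% intervals), without rhChemerin replicate 3 (red squares) and without rhChemerin replicate 1 (blue triangles). Without replicate 3, MMP1 moves from 6.28 to 3.54, MMP9 from 2.00 to 1.95, and TIMP3 crosses 0. Without replicate 1, MMP9 is at 2.26.

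MMP1, the interstitial collagenase that cleaves fibrillar collagens, had the greatest difference of the members. It lies on chromosome 11 (GRCh38, 102789920 to 102798160, minus strand), between MMP10 (102770503 to 102780628) and MMP3 (102835801 to 102843803), and these 3 genes span 73301 bases. Its level was 0.172, 0.331 and 1.90 FPKM in NC-1, NC-2 and NC-3 and 1.67, 15.8 and 145 FPKM in rhChemerin-1, rhChemerin-2 and rhChemerin-3. The groups overlapped, since NC-3 was above rhChemerin-1, and the treated libraries differed among themselves 86.9-fold against 11.1-fold in NC. Of the tested genes with counts in all rhChemerin libraries, only MMP1 and ANGPTL4, named after its value was seen, varied this much among them. The means were 0.801 ± 0.955 FPKM in NC and 54.1 ± 78.9 FPKM in rhChemerin (SD, n = 3), and the raw counts ran from 12 to 10679. The log2 fold change was 6.28 (SE 1.73, 95% interval 2.23 to 10.34), with an adjusted p of 0.121 by edgeR and 0.00478 by DESeq2, and the adjusted p ran from 7.83e-08 to 0.386 over all alternatives. Without rhChemerin-3 the log2 fold change was 3.54 and the adjusted p 0.107 by edgeR and 0.109 by DESeq2, and without NC-3 it was 7.94 (edgeR adjusted p = 0.281). The DESeq2 call was also lost without NC-2, at an adjusted p of 0.0928, whereas edgeR called the gene without rhChemerin-1, at 0.0328. MMP1 shares 150 of its 1970 annotated exon bases with WTAPP1 on the opposite strand, and the strand setting of the counting is not given in the sources used here.

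The stromelysins MMP3 and MMP10 cleave proteoglycans, laminin and fibronectin and can activate other MMP zymogens, and they were nearly silent here. MMP3 had 0, 0 and 10 counts in the NC libraries and 1, 0 and 65 in the rhChemerin libraries. Nearly all of its treated counts thus came from rhChemerin-3, the library in which MMP1 was also highest. Per total count the rhChemerin group held 6.38 times the MMP3 counts of NC (66 against 10, 95% exact interval 3.26 to 13.9, counting error only). MMP10 had 0 counts in all NC libraries and 0, 5 and 3 in the rhChemerin libraries. Per total count this is 2.58 times a floor of 3 counts set for the whole NC group. The ratio takes the treated counts as exact, so it is not a lower limit of the difference. Neither passed the filter of edgeR on low counts, so neither has a main test. DESeq2 gave MMP3 an adjusted p of 0.676 and MMP10 none.

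The gelatinases cleave denatured collagen and basement membrane collagen, and their genes MMP2 and MMP9 behaved differently. MMP9 (chromosome 20, 46008908 to 46016561, plus strand) had 0.254, 0.757 and 0.903 FPKM in NC-1 to NC-3 and 1.48, 3.17 and 2.34 FPKM in rhChemerin-1 to rhChemerin-3. Every treated library lay above every NC library, and rhChemerin-2 rather than rhChemerin-3 was highest. The means were 0.638 ± 0.341 and 2.33 ± 0.844 FPKM (SD, n = 3), and the gene had 21 to 269 counts. The log2 fold change was 2.00 (SE 0.50, 95% interval 0.84 to 3.17), with an adjusted p of 0.106 by edgeR and 0.00152 by DESeq2, and from 1.92e-06 to 0.377 over all alternatives. The log2 fold change was 1.95 without rhChemerin-3, and 2.26 without rhChemerin-1, where edgeR called the gene at an adjusted p of 0.0443. Of the libraries left out in turn, only rhChemerin-2 ended the DESeq2 call, at an adjusted p of 0.0596. Of its 2336 exon bases, 430 are shared with the antisense gene SLC12A5-AS1. MMP2 (chromosome 16, 55389700 to 55506691, plus strand) was more abundant and nearly level, with 89.8, 89.4 and 85.5 FPKM in NC and 89.7, 87.9 and 89.3 FPKM in rhChemerin. Its log2 fold change was 0.14 (SE 0.08, 95% interval -0.05 to 0.34, adjusted p = 0.330 by edgeR), and 0.01 when libraries were scaled by their totals alone. MMP2 was thus within 0.34 of no difference on the log2 scale, whereas the interval of MMP9 began at 0.84. The difference between the genes was not tested.

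The membrane-type enzymes MMP14 and MMP15 differed from NC in opposite directions. MMP14 (MT1-MMP), the surface collagenase that opens the zymogen of MMP2, lies on chromosome 14 (22836557 to 22849027, plus strand). Its level was 93.2, 109 and 110 FPKM in NC-1 to NC-3 and 103, 147 and 213 FPKM in rhChemerin-1 to rhChemerin-3. The groups overlapped, because rhChemerin-1 lay within the NC range, while rhChemerin-2 and rhChemerin-3 were above it. The means were 104 ± 9.36 and 154 ± 55.3 FPKM (SD, n = 3). The log2 fold change was 0.72 (SE 0.27, 95% interval 0.08 to 1.36, adjusted p = 0.183 by edgeR and 0.0632 by DESeq2, range over all alternatives 6.79e-05 to 0.423). It was 0.35 without rhChemerin-3 and 0.96 without rhChemerin-1, and edgeR called the latter at 0.0409.

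MMP15 (MT2-MMP), a related transmembrane enzyme, lies on chromosome 16 (58025566 to 58046901, plus strand). It had 15.7, 16.4 and 19.6 FPKM in NC-1 to NC-3 and 13.1, 8.42 and 5.89 FPKM in rhChemerin-1 to rhChemerin-3. All 3 treated libraries lay below all 3 NC libraries, and rhChemerin-3, highest for MMP14, was lowest for MMP15. The means were 17.2 ± 2.10 and 9.15 ± 3.67 FPKM (SD, n = 3). The log2 fold change was -0.80 (SE 0.24, 95% interval -1.36 to -0.24), with an adjusted p of 0.135 by edgeR and 0.0216 by DESeq2, and from 1.78e-07 to 0.377 over all alternatives. The DESeq2 call was lost without NC-1, NC-2, NC-3 or rhChemerin-2, at adjusted p of 0.0778, 0.138, 0.173 and 0.137. Without rhChemerin-3 the log2 fold change was -0.60 (DESeq2 adjusted p = 0.0183), and without rhChemerin-1 it was -1.12 (edgeR adjusted p = 0.0266).

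Promoter sequence of MMP14 (GRCh38.p14, chr14:22836335-22836556, plus strand) and of MMP15 (chr16:58025504-58025565, plus strand) is shown because these related genes differed from NC in opposite directions. The RefSeq starts, 22836585 for MMP14 and 58025754 for MMP15, lie 28 and 188 bases after the GENCODE starts given above, and only bases before both starts are printed. Promoter entries from RefSeq were found for 5 of the 10 members, MMP10, MMP14, MMP15, TIMP1 and TIMP3. The 250 bases before the RefSeq start were searched on both strands for the AP-1 letters TGAGTCA, held by 4.16% of 27305 promoters of the same length, for the variant TGAGTAA, held by 2.25%, and for the GC box GGGCGG, held by 42.3%. Capitals mark matches on either strand.
MMP14: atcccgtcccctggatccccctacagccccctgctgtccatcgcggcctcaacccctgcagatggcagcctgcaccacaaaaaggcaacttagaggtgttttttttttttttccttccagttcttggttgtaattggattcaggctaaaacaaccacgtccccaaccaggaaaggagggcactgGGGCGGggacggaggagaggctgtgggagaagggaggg
MMP15: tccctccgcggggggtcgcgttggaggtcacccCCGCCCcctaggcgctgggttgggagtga
Over all 250 bases MMP14 held 56.8% G and C and 1 GC box, whereas MMP15 held 74.8% G and C and 5 GC boxes, 4 of them after its GENCODE start and not printed. Neither held TGAGTCA or TGAGTAA. These matches are letters in this window only.

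**Figure D2:**
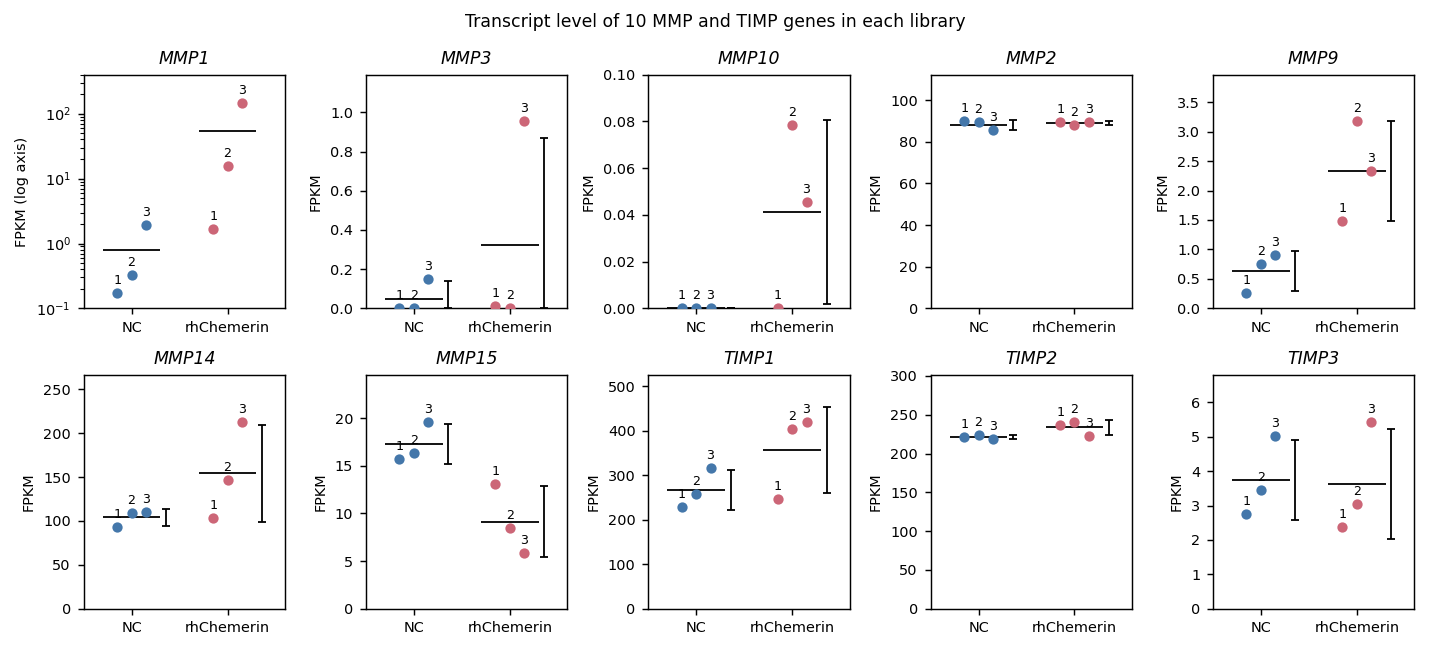
FPKM of each of the 10 members on the y axis (log axis for MMP1, linear from 0 for the others) in NC (blue) and rhChemerin (red). Points are libraries with their replicate number, horizontal lines are group means, and bars beside the points are 1 SD (not drawn for MMP1, and cut at 0). MMP9 and MMP15 are the 2 members whose groups do not overlap in FPKM.

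Of the inhibitors, TIMP1 had the greatest difference between the groups, which passed neither test with all libraries. TIMP1, a secreted inhibitor of most soluble MMPs, lies on the X chromosome (47582313 to 47586789, plus strand), inside the gene SYN1 on the other strand but with no shared exon bases. It had 228, 257 and 316 FPKM in NC-1 to NC-3 and 246, 404 and 421 FPKM in rhChemerin-1 to rhChemerin-3. As for MMP14, rhChemerin-1 lay inside the NC range and the other treated libraries above it. The means were 267 ± 44.6 and 357 ± 96.4 FPKM (SD, n = 3). With edgeR its log2 fold change was 0.56 (SE 0.24, 95% interval 0.01 to 1.12, adjusted p = 0.216 by edgeR and 0.124 by DESeq2, range over all alternatives 1.01e-04 to 0.529). It was 0.37 without rhChemerin-3, and 0.78 without rhChemerin-1, where edgeR called it at 0.0382. Its promoter sequence (GRCh38.p14, chrX:47582186-47582312, plus strand) is shown because TIMP1 and MMP14 held the same order over the rhChemerin libraries, with capitals as above. MMP1 and TIMP3 held this order too, and its share over all genes was not taken. The RefSeq start, 47582436, lies 123 bases after the GENCODE start, and only bases before both are printed.
TIMP1: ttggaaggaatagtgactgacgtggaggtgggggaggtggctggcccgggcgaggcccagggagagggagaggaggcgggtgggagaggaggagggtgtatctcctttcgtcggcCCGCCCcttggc
Over all 250 bases before the RefSeq start TIMP1 held 64.8% G and C, 2 GC boxes and 1 TGAGTAA, the latter from 101 to 95 bases before that start and thus after the GENCODE start. TIMP3 held 5 GC boxes and MMP10, with 34.4% G and C, none of the 3 motifs.

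TIMP2, the inhibitor that also bridges MMP14 and the zymogen of MMP2, lies on chromosome 17 (78852977 to 78925387, minus strand). It had 222, 224 and 218 FPKM in NC and 237, 241 and 223 FPKM in rhChemerin, with means of 221 ± 2.92 and 234 ± 9.67 (SD, n = 3). The treated libraries were slightly higher, and rhChemerin-3 lay inside the NC range. EdgeR gave a log2 fold change of 0.21 (SE 0.08, 95% interval 0.01 to 0.40, adjusted p = 0.201 by edgeR and 0.0769 by DESeq2, range over all alternatives 0.0294 to 0.582), the lowest being DESeq2 without rhChemerin-3, and it was 0.08 with libraries scaled by their totals alone. TIMP2 shares 198 of 5633 exon bases with CEP295NL on its own strand and 367 with an antisense gene. TIMP3, which binds to the matrix and also inhibits several ADAM proteases, lies on chromosome 22 (32801701 to 32863043, plus strand). It had 2.76, 3.46 and 5.01 FPKM in NC-1 to NC-3 and 2.38, 3.05 and 5.44 FPKM in rhChemerin-1 to rhChemerin-3. The groups covered the same range, with a log2 fold change of 0.11 (SE 0.37, 95% interval -0.75 to 0.97, adjusted p = 0.875 by edgeR), which became -0.38 without rhChemerin-3 and -0.047 with libraries scaled by their totals alone. Differences of TIMP3 of up to 0.97 on the log2 scale lay within this interval.

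By FPKM, a level per gene length, the order in NC was TIMP1, TIMP2, MMP14, MMP2, MMP15, TIMP3, MMP1, MMP9, MMP3 and MMP10. Of these neighbours only MMP1 and MMP9, and MMP3 and MMP10, overlapped in their libraries. In rhChemerin the first 4 places were unchanged, and MMP1 came next by its mean, with a range from 1.67 to 145 FPKM that overlapped both MMP2 above and MMP15 below. TIMP3 and MMP9, which were apart in NC, overlapped in rhChemerin. The difference between these orders was not tested.

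Summed over the 7 MMP members, the level was 199, 215 and 218 FPKM in the NC libraries and 209, 262 and 456 FPKM in the rhChemerin libraries. The 3 TIMP members summed to 453, 485 and 539 FPKM in NC and to 486, 648 and 649 FPKM in rhChemerin. Enzyme transcripts were below inhibitor transcripts in every library. The ratio of the sums was 0.440, 0.445 and 0.405 in NC and 0.431, 0.405 and 0.703 in rhChemerin, so that rhChemerin-1 and rhChemerin-2 lay within the NC range and rhChemerin-3 above it. The group means of the ratio were 0.430 ± 0.0218 and 0.513 ± 0.165 (SD, n = 3), a difference smaller than the spread of the treated libraries. Without MMP1 the means were 0.428 ± 0.0235 and 0.429 ± 0.0498, and rhChemerin-3 stood at 0.480. MMP1 made up 0.0863% to 0.871% of the MMP sum in NC, and 0.797%, 6.02% and 31.7% in rhChemerin-1 to rhChemerin-3. MMP2 and MMP14 together made up 66.2% to 92.2% of the MMP sum, the lowest share being that of rhChemerin-3, and TIMP1 and TIMP2 together 99.1% to 99.5% of the TIMP sum. Within these pairs the ratio of MMP14 to MMP2 was 1.04 to 1.29 in NC and 1.15, 1.67 and 2.39 in rhChemerin, and that of TIMP1 to TIMP2 was 1.03 to 1.45 in NC and 1.04, 1.67 and 1.89 in rhChemerin. In both pairs the first gene rather than the second differed among the treated libraries.

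**Figure D3:**
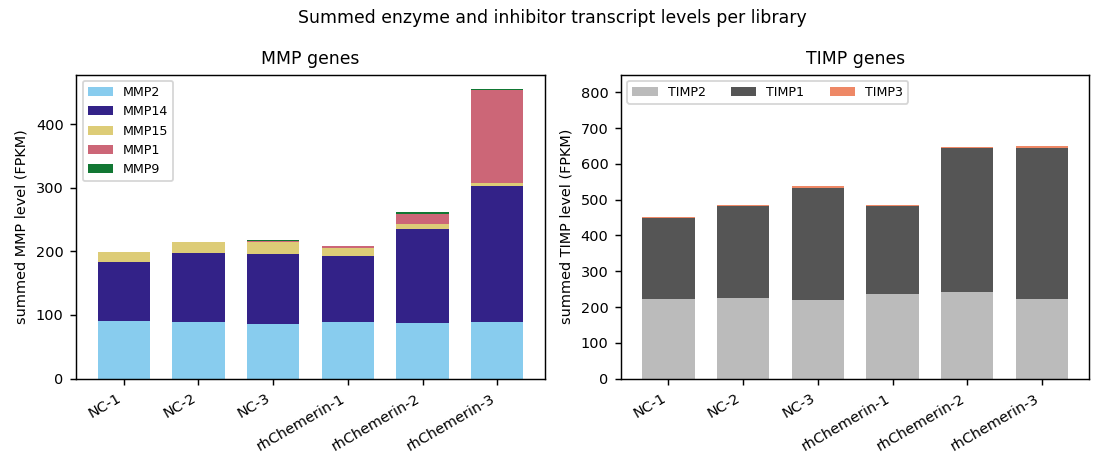
Summed FPKM (y axis, from 0) of the MMP members (left) and the TIMP members (right) in each of the 6 libraries (x axis), stacked by gene, with MMP3 and MMP10 left out because they are under 1 FPKM. MMP2 and TIMP2 keep nearly the same height in all libraries, whereas MMP1 reaches 145 FPKM in rhChemerin-3.

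Across the members, 7 of the 8 tested had a log2 fold change above 0, beside 6886 of all 13311 tested genes. The median was 0.38, against 0.01 over all tested genes. With libraries scaled by their totals alone these medians were 0.25 and -0.12. The groups did not overlap in TMM-scaled CPM for 4 of the 8 members, MMP2, MMP9 and TIMP2 being higher and MMP15 lower. Beside this, 32.5% of all tested genes did not overlap, 16.5% being higher and 16% lower. In FPKM, or with libraries scaled by their totals alone, MMP2 and TIMP2 overlapped, and the count was 2, with no share over all genes taken there. The rhChemerin libraries were unlike each other in most members. The highest FPKM was in rhChemerin-3 for 5 members, MMP1, MMP3, MMP14, TIMP1 and TIMP3, and in rhChemerin-2 for 3, MMP9, MMP10 and TIMP2. Of the treated libraries, rhChemerin-1 held the lowest FPKM of 6 members. No share over all genes was taken for these tallies, and MMP3 and MMP10 enter them from at most 65 and 5 counts. Relative to its mean over all libraries, MMP1 in log2 CPM was at -3.88, -3.06 and -0.63 in NC-1 to NC-3 and at -0.75, 2.51 and 5.82 in rhChemerin-1 to rhChemerin-3. MMP15 ran the other way, at 0.31, 0.35 and 0.62 in NC and 0.11, -0.49 and -0.89 in rhChemerin. NC-3 was the NC library nearest to the treated ones for MMP1, MMP9, MMP14 and TIMP1, and the farthest from them for MMP2, MMP15 and TIMP2.

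**Figure D4:**
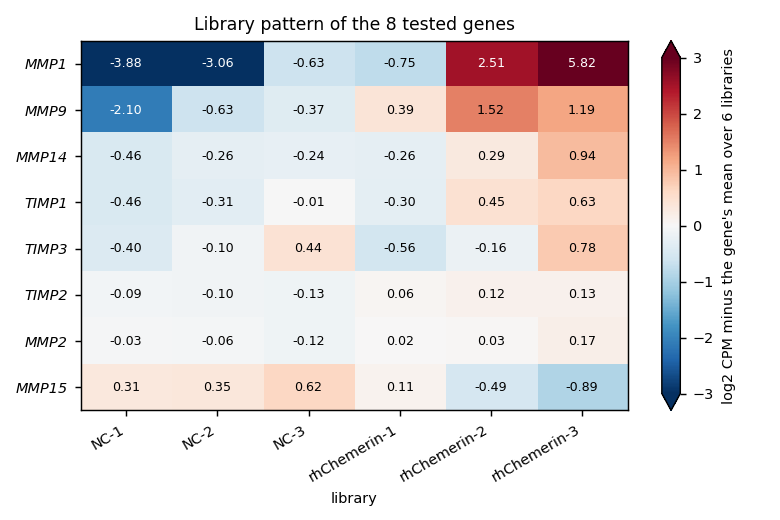
Log2 CPM of each of the 8 tested members (rows) in each library (columns) minus the gene's mean over the 6 libraries, with the value printed in each cell and colours limited to -3 to 3. For MMP1, MMP14, TIMP1 and TIMP3 the highest cell is rhChemerin-3, for MMP15 the lowest.

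The genes whose pattern over the 6 libraries was most like that of MMP1 were chosen by the mean absolute difference of centred log2 CPM, which had a median of 2.78 over the other 13310 tested genes. HAS2, which encodes a hyaluronan synthase, was nearest at 0.192. It had 3, 8 and 41 counts in NC-1 to NC-3 and 50, 314 and 3079 in rhChemerin-1 to rhChemerin-3. Like MMP1 it was low in NC and spread widely over the treated libraries, with a log2 fold change of 6.20, or 3.46 without rhChemerin-3 and 7.83 without NC-3. ANXA10, COL6A3, SERPINB7 and IL13RA2 followed at 0.900, 1.24, 1.29 and 1.31. Their log2 fold changes were 3.90, 3.08, 3.10 and 3.44. These 5 genes were chosen for a pattern that includes the group difference, so their fold changes are a description. Their adjusted p are left out here and are not read as a result.

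Most tested genes of the rest of the MMP and TIMP family had log2 fold changes below 0, and the difference from the members was not tested. Of 17 further family genes, 11 were in the tables and 8 were tested, 1 with a log2 fold change above 0 and 7 below, with a median of -0.58. Over all tested genes 6886 were above 0 and 6425 below. EdgeR called 0 of them, with 5 at an unadjusted p under 0.05, and DESeq2 called 4 of 9, MMP16 as higher and MMP11, MMP23B and MMP28 as lower. For this list and each list below, edgeR had 3038 of all 13311 tested genes at an unadjusted p under 0.05. DESeq2 called 9.05% of all genes. MMP11 (stromelysin-3) had 4.87, 4.66 and 5.72 FPKM in NC and 3.11, 2.19 and 0.674 FPKM in rhChemerin. Its log2 fold change was -1.25 (SE 0.45, adjusted p = 0.169 by edgeR and 0.0407 by DESeq2). MMP28 (epilysin), a secreted enzyme of epithelia, had 3.40, 4.55 and 4.71 FPKM in NC and 2.58, 1.13 and 0.453 FPKM in rhChemerin, with a log2 fold change of -1.50 (SE 0.51, adjusted p = 0.157 by edgeR and 0.0225 by DESeq2). In both genes all treated libraries were below all NC libraries and rhChemerin-3 was lowest, as for MMP15. Without rhChemerin-3 the log2 fold changes were -0.86 for MMP11 and -1.11 for MMP28, and that of MMP28 was -2.27 without rhChemerin-1, where edgeR called it at an adjusted p of 0.0316.

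MMP23B, an unusual membrane-anchored member, had 1.06, 1.05 and 1.28 FPKM in NC and 0.206, 0.167 and 0.548 FPKM in rhChemerin. Its log2 fold change was -1.72 (SE 0.52, adjusted p = 0.135 by edgeR and 0.0213 by DESeq2), from 13 to 99 counts, and here rhChemerin-3 was the highest treated library. Without rhChemerin-3 it was -2.51 and edgeR called it at an adjusted p of 0.0303, while the DESeq2 call was lost when any other library was left out. Reads of MMP23B may be split with its near-identical copy MMP23A, so its level is uncertain. MMP16 (MT3-MMP) was higher, with a log2 fold change of 0.60 (SE 0.18, adjusted p = 0.129 by edgeR and 0.0343 by DESeq2), or 0.39 without rhChemerin-3. Over all alternatives the adjusted p of these 4 genes ran from 2.93e-08 to 0.407, both for MMP28. The remaining tested genes passed neither test, with log2 fold changes of -0.47 for MMP17, -0.36 for MMP19, -0.69 for MMP24 and -0.39 for TIMP4. MMP24 shares 799 of 4414 exon bases with MMP24OS on the other strand, and MMP19 shares 814 of 4672 with TMEM198B. Of the genes called by DESeq2, MMP11 shares 218 of 5176 with CHCHD10 and MMP23B 37 of 2273 with CDK11B. MMP16 shares 118 of 12115 with an antisense gene, and all these partners lie on the opposite strand. MMP7, MMP21 and MMP25 had at most 8, 2 and 11 counts and were not tested by edgeR, and DESeq2 gave only MMP25 an adjusted p, 0.781.

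Genes that take part in opening MMP zymogens, directly or through plasmin, made up a list of 14, of which 9 were tested. EdgeR called 0, with 4 at an unadjusted p under 0.05, and DESeq2 called 1. This was CTSB, the lysosomal cysteine protease cathepsin B, with a mean of 208 ± 8.22 FPKM in NC and 256 ± 28.0 FPKM in rhChemerin (SD, n = 3) and a log2 fold change of 0.43 (SE 0.11, adjusted p = 0.110 by edgeR and 0.00909 by DESeq2). PLAT, tissue plasminogen activator, had the greatest difference, with 14.3, 18.1 and 43.1 FPKM in NC and 18.1, 54.8 and 106 FPKM in rhChemerin. Its libraries overlapped, and the log2 fold change of 1.41 (SE 0.67, adjusted p = 0.256 by edgeR) was 0.63 without rhChemerin-3 and 2.05 without NC-3. ST14 (matriptase) had the lowest log2 fold change, -0.39 (SE 0.61, adjusted p = 0.715 by edgeR), from 5 to 18 counts, or -1.03 without rhChemerin-3.

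Of 7 further inhibitors and regulators of MMP activity, 6 were tested. EdgeR called 0, with 3 at an unadjusted p under 0.05, and DESeq2 called 2. SERPINE2 (protease nexin-1) had a log2 fold change of 1.15 (SE 0.39, adjusted p = 0.158 by edgeR and 0.0202 by DESeq2) and the proteoglycan gene SPOCK1 of 0.85 (SE 0.27, adjusted p = 0.144 by edgeR and 0.0230 by DESeq2). Without rhChemerin-3 these were 0.72 and 0.59. RECK, a membrane-anchored MMP inhibitor, was lower in all treated libraries, with a mean of 3.70 ± 0.133 FPKM in NC (SD, n = 3) and 3.02, 2.44 and 1.77 FPKM in rhChemerin-1 to rhChemerin-3. Its log2 fold change was -0.50 (SE 0.16, adjusted p = 0.148 by edgeR and 0.0669 by DESeq2), and edgeR called it without rhChemerin-1, at 0.0483.

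The list of 4 surface partners and inducers of MMPs held no gene called by edgeR or DESeq2, and 1 gene was at an unadjusted p under 0.05 by edgeR. CD44, the hyaluronan receptor that can dock MMP9 and MMP14, had 49.5, 55.5 and 82.9 FPKM in NC and 57.4, 124 and 213 FPKM in rhChemerin. The order of its libraries in the treated group was that of MMP1, MMP14, TIMP1 and TIMP3. Its log2 fold change was 1.23 (SE 0.47, adjusted p = 0.184 by edgeR), or 0.63 without rhChemerin-3. LCN2 (lipocalin 2), which forms a complex with MMP9, had a log2 fold change of -1.23 (SE 0.53, adjusted p = 0.219 by edgeR) from only 5 to 24 counts.

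All 10 listed genes of the related ADAM and ADAMTS metalloproteinases, some of which TIMPs inhibit, were tested. EdgeR called 0, with 5 at an unadjusted p under 0.05, and DESeq2 called 4, all as higher. ADAM12, a transmembrane metalloproteinase, had 13.6, 12.8 and 10.9 FPKM in NC and 18.7, 17.2 and 23.8 FPKM in rhChemerin, and the groups did not overlap. Its log2 fold change was 0.82 (SE 0.17, adjusted p = 0.0824 by edgeR and 7.61e-04 by DESeq2), and 0.61 without rhChemerin-3. ADAMTS1, a secreted protease of proteoglycans, had 12.6, 13.6 and 17.5 FPKM in NC and 19.7, 26.4 and 35.6 FPKM in rhChemerin, with a log2 fold change of 1.05 (SE 0.25, adjusted p = 0.103 by edgeR and 0.00174 by DESeq2). The other 2 called genes were ADAM9, at 0.47 (SE 0.10, adjusted p = 0.0944 by edgeR and 0.00318 by DESeq2), and ADAM19, at 1.14 (SE 0.39, adjusted p = 0.158 by edgeR and 0.0204 by DESeq2), or 0.66 without rhChemerin-3. ADAMTS4, an aggrecanase, had the lowest log2 fold change, -2.04 (SE 0.68, adjusted p = 0.154 by edgeR and 0.0684 by DESeq2), from 3 to 60 counts, or -1.40 without NC-3. Over all 52 listed genes outside the members, 37 were tested by edgeR and none was called. Of these 37, 18 were at an unadjusted p under 0.05, beside 3038 of all 13311 tested genes. DESeq2 called 11 of 39, 8 as higher and 3 as lower, beside 9.05% of all genes. Without rhChemerin-1 edgeR called 11, beside 6.24% of all genes, among them MMP28, RECK, SERPINE2, SPOCK1, CD44, ADAM12, ADAM19 and ADAMTS1 at adjusted p from 0.0289 to 0.0483. Without rhChemerin-3 edgeR called ADAM12, at 0.0333, and MMP23B. Their median log2 fold change was 0.14, and groups did not overlap for 16, 8 in each direction, beside 32.5% of all tested genes. Over all alternatives the adjusted p of the 11 genes called by DESeq2 ran from 5.90e-09, for ADAMTS1, to 0.421, for SERPINE2. When each library was left out in turn DESeq2 called 1 to 10 of these 11, the fewest without NC-2, and ADAM12 was called each time.

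**Figure D5:**
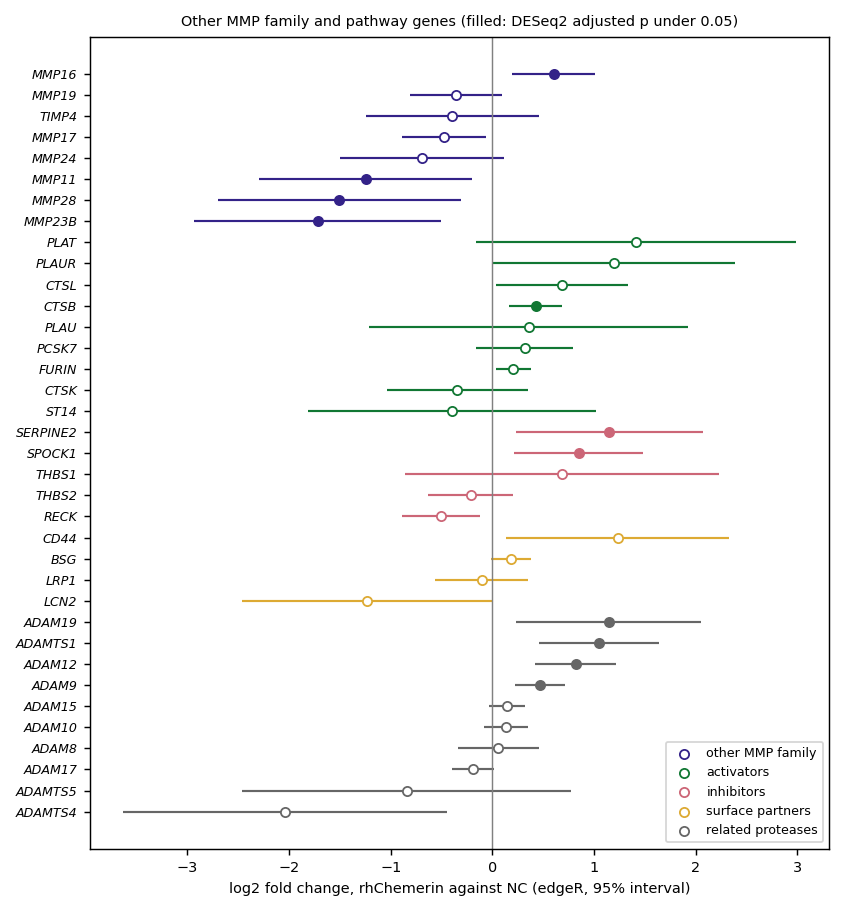
Log2 fold change of rhChemerin against NC (x axis) with 95% interval from edgeR for the tested genes of the MMP family and pathway lists, except 1 inhibitor gene that is not reported here, coloured by list and filled where the DESeq2 adjusted p is under 0.05. The 11 filled genes are 8 to the right of 0 and 3, all MMPs, to its left.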

How the data were processed

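Total RNA of 12Z cells was sequenced in 3 NC and 3 rhChemerin libraries, grouped by their labels. Per the labels and the study's methods, the authors trimmed reads with fastp, mapped them with HISAT2 to GRCh38.p13 and used HTSeq to count reads on each gene. The authors deposited these read counts without normalization, and a table of FPKM for the same genes. In 12103 genes with at least 20 counts in every library, the deposited FPKM gave the same gene length in all libraries, within 1%, for 100% of genes. How strand was treated in counting, and which annotation was used, are not given in the sources used here.

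Counts were tested with edgeR 4.0.16 (R 4.3.3, TMM factors, filterByExpr with the group, quasi-likelihood test, Benjamini-Hochberg over 13311 genes, threshold 0.05), and with DESeq2 1.42.0 as the study's own tool. The SE is the absolute log2 fold change divided by the square root of F, and the 95% interval uses edgeR's total degrees of freedom. FPKM values are not TMM-scaled, whereas fold changes are, and TMM factors were 0.898 to 1.05. CPM for overlap and pattern were TMM-scaled, and only log2 CPM, used for pattern and correlation, had a prior count of 2. Alternatives were limma 3.58.1 on log2 FPKM with a pseudocount of 1 or 0.1, library sizes or RLE factors for scaling, no filter or a CPM above 1, the replicate number as a block, and each library left out. DESeq2 with a block or with a library left out, and edgeR with legacy=FALSE, were added after the data were seen. The scripts were tested on simulated data.

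The members and the gene lists were chosen with earlier results of these data known. The text names all members, every tested gene of the rest of the family, pathway genes called by either tool, the highest and lowest fold change of each list, and the 5 genes nearest to the member with the greatest fold change. Coordinates are from GENCODE release 29, promoters from RefSeq (GRCh38.p14). MMP1, MMP2, MMP3, MMP9 and TIMP2 are named only. A gene that the rule names is not reported here, and counts over its list include it. Intervals on counts cover counting error only.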

Additional observations from a re-analysis of the deposited data

How the results depend on the processing

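Of 176 alternative values of the members' log2 fold changes, 169 kept their direction and 27 passed the threshold, and the 7 that turned were all of TIMP3, at -0.064 and -0.088 with limma and a pseudocount of 1 or 0.1, -0.047 with library size only, -0.063 without NC replicate 1 (-0.066 by DESeq2) and -0.38 without rhChemerin replicate 3 (-0.37 by DESeq2). The log2 fold change of TIMP3 ran from -0.38 to 0.38 when a library was left out. Members called numbered 0 in edgeR, 3 in DESeq2, 0 to 5 with edgeR and 1 to 5 with DESeq2 when a library was left out. All genes called numbered 4 in edgeR, 1302 in DESeq2, 179 and 23 in limma with pseudocounts of 1 and 0.1, 17 without the filter and 15 with legacy=FALSE, and 0 to 844 with edgeR and, with DESeq2, 658, 283 and 518 without NC replicates 1, 2 and 3 and 2616, 584 and 1695 without rhChemerin replicates 1, 2 and 3. Family and pathway genes called numbered 0 in edgeR, 11 in DESeq2 and 1 (MMP23B) in limma with a pseudocount of 1. When a library was left out they numbered 0 to 11 with edgeR and 1 to 16 with DESeq2. Members whose groups did not overlap numbered 4, beside 32.5% of all tested genes, and 2 with library size only and 2 on FPKM. They numbered 4 to 7 when a library was left out, where fewer libraries have to stand apart. The share over all genes was not taken in these other settings, so these counts are not read as a result. The difference of the MMP to TIMP ratio was 0.0831, 9.82e-04 without MMP1 and -0.0120 to 0.137 when a library was left out.

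With the replicate number as a block, edgeR called 1 gene (HAS2) and 0 members (MMP1 at an adjusted p of 0.0524, MMP9 at 0.0581), and DESeq2 called 1447 genes and 5 members. With the block the edgeR SE fell from 1.73 to 0.463 for MMP1, 0.366 to 0.147 for TIMP3 and 0.238 to 0.133 for TIMP1. It rose from 0.0830 to 0.0963 for MMP2 and from 0.0832 to 0.101 for TIMP2. Deviations of same-numbered libraries correlated at 0.241, 0.00147 and 0.247, and 4 of 6 libraries correlated best with their own number. The labels do not say whether equal numbers mark pairs, so the main test used none, and these values do not settle whether pairs existed. The cause of these changes was not tested. Depth limits MMP3 and MMP10, which had at most 65 and 5 counts. MMP1 and MMP9 had the widest intervals of the 8 tested members.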
